A study of Arabidopsis thaliana with 9 samples.

Results

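UGT74B1 (AT1G24100), BCAT4 (AT3G19710), GTR1 (AT3G47960) and SDI2 (AT1G04770) are 4 genes of Arabidopsis thaliana that make, move or sit beside the glucosinolates and the response to sulfur shortage. Each locus had 1 probe set paired with it alone in the platform annotation, so that these 4 of 13286 genes with such a probe set were read from 4 of 22746 probe sets. They were chosen after their values on these arrays were known, and every difference between groups given for them is therefore a description, with no p-value. The name SDI2 came with the choice of the locus, since the gene table used for names gives AT1G04770 no symbol.

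Glucosinolates are thioglucosides rich in sulfur that plants of the cabbage order store and that myrosinases split into toxic products when tissue is damaged. The aliphatic kinds start from methionine, whose side chain is lengthened before the core is built, and BCAT4 is the aminotransferase of the first step of that lengthening. UGT74B1 adds the glucose to the thiohydroximate intermediate of the core, and GTR1 is a proton-coupled importer that loads finished glucosinolates into cells along the phloem. SDI2 belongs with SDI1 to the genes induced by sulfur deficiency, which hold back glucosinolate synthesis when sulfur is short.

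The arrays compared 3 groups of whole plants, each 7 days old and grown on 0.8% agar with MS medium. For Col-0 and the AtSPP-overexpressed lines the study gives this medium at reduced strength. The AtSPP-overexpressed lines (3 arrays) carry the full-length AtSPP, which encodes the signal peptide peptidase, an intramembrane protease of the endoplasmic reticulum, between the CaMV 35S promoter, active in most tissues, and Nos-T. The labels name the vector pZH2B for replicate 1, pZH3B for replicate 2 and pZH4B for replicate 3, whereas the methods name pZH2B alone, so that it is unsettled whether the vectors differed. The AtSPP knockdown lines (3 arrays) carry a sense and antisense vector against AtSPP, with a fragment of 600 bp in replicate 1 and of 400 bp in replicates 2 and 3, a design that lowers a transcript and leaves the gene in place. The parental Col-0 strain (3 arrays) carries no insertion. Every array held RNA pooled from 20 plants, and the labels speak of 3 lines of each transgenic kind without saying which line is on which array. In pooled whole plants, fewer cells of a type and less RNA per cell cannot be told apart.

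The values hardly varied, with an array median of 6.30 throughout. The SD across all 9 arrays had a median of 0.00538 thousandths of a DFW log2 unit, and it exceeded 0.001 unit for 440 probe sets. DFW (distribution free weighted) normalization draws the arrays together wherever they differ little. A difference below is therefore given in thousandths of a DFW log2 unit, relative to the mean of the 3 Col-0 arrays, and is not a log2 fold change. AtSPP itself was 217 thousandths higher in the AtSPP-overexpressed lines (SE 17.0, n = 3 and 3, limma adjusted p = 0.0140). Its difference of -47.9 in the knockdown lines missed the threshold (limma adjusted p = 0.125), although all 3 knockdown arrays lay below Col-0. That test shares 1 estimate of the spread over all 9 arrays. The SD of AtSPP was 34.8 thousandths in the AtSPP-overexpressed, 9.61 in the knockdown and 10.9 in the Col-0 group. Among organ markers, 2 of 16 shoot genes and 1 of 11 root genes had a probe set paired with 1 gene, none of them at 0. The summed shoot level on the DFW log2 scale was 22.570 to 22.573 in the AtSPP-overexpressed lines, 22.582 to 22.584 in the knockdown lines and 22.573 in Col-0, and the root level was 6.3277 to 6.3278 throughout. The shoot marker LHCB4.2, an antenna protein of photosystem II, rose in the knockdown lines by 9.82 thousandths (SE 0.791, limma adjusted p = 0.00144), while RCA, the rubisco activase gene, differed by 0.000113 thousandths (adjusted p = 0.992). The part of the LHCB4.2 shift in the differences below was not tested.

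In the AtSPP knockdown lines all 4 genes were lower than in Col-0, on every array, and in the AtSPP-overexpressed lines all 4 had a mean between those of Col-0 and the knockdown lines. The order of the means was thus Col-0, AtSPP-overexpressed, AtSPP knockdown for each of the 4. The genes differed by degrees in how far the AtSPP-overexpressed arrays lay from Col-0. That difference was 77.4% of the knockdown difference for SDI2, 55.7% for UGT74B1, 42.0% for BCAT4 and 17.5% for GTR1. SDI2 and UGT74B1 were below Col-0 on all 3 AtSPP-overexpressed arrays, whereas GTR1 and BCAT4 overlapped with Col-0. Between UGT74B1 and BCAT4 this split was narrow, with gaps to the lowest Col-0 array of 0.204 and -0.0393 thousandths.

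SDI2, the sulfur deficiency gene, was lower in both transgenic kinds. Relative to the Col-0 mean, the 3 Col-0 arrays stood at -25.4, 15.5 and 9.89 thousandths for replicates 1, 2 and 3. The AtSPP-overexpressed arrays stood at -76.1, -130 and -107, and the knockdown arrays at -124, -133 and -147. Both transgenic kinds were clear of Col-0, by a gap of 50.7 for the AtSPP-overexpressed and 98.9 for the knockdown arrays, and they overlapped with each other. The differences of the means were -104 ± 16.5 thousandths (SE, n = 3 and 3) in the AtSPP-overexpressed and -135 ± 16.5 in the knockdown lines, so that the first was 77.4% of the second. By size these were the 5th and the 10th largest of the 22746 differences in the respective comparison, beside a median size of 0.00301 and 0.00403 thousandths.

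GTR1, the glucosinolate importer, was lower than in Col-0 on every knockdown array and overlapped with Col-0 in the AtSPP-overexpressed lines. The Col-0 arrays stood at -1.13, -0.152 and 1.28 thousandths, the AtSPP-overexpressed arrays at -0.0265, -1.79 and -1.21, and the knockdown arrays at -4.91, -6.36 and -6.03. The knockdown arrays lay below all 6 others, 3.78 under the lowest Col-0 array and 3.12 under the lowest AtSPP-overexpressed array. Of the AtSPP-overexpressed arrays, replicate 1 lay within the Col-0 range and the others just under it. The difference from Col-0 was -5.77 ± 0.758 thousandths (SE, n = 3 and 3) in the knockdown and -1.01 ± 0.758 in the AtSPP-overexpressed lines, the latter 17.5% of the former. The second of these values rests on few arrays, since leaving out Col-0 replicate 3 gave -0.368, AtSPP-overexpressed replicate 2 gave -0.617 and Col-0 replicate 1 gave -1.57.

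UGT74B1, the glucosyltransferase of the core pathway, was lower in both transgenic kinds and had a narrow spread in Col-0. Its Col-0 arrays stood at -0.167, 0.166 and 0.0009 thousandths, the AtSPP-overexpressed arrays at -0.370, -2.06 and -1.69, and the knockdown arrays at -1.99, -2.35 and -3.06. Replicate 1 of the AtSPP-overexpressed lines was only 0.204 below the lowest Col-0 array, and replicate 2 lay below the highest knockdown array. The difference from Col-0 was -1.37 ± 0.475 thousandths (SE, n = 3 and 3) in the AtSPP-overexpressed and -2.46 ± 0.475 in the knockdown lines. The SD of the 3 arrays was 0.888 in the AtSPP-overexpressed, 0.546 in the knockdown and 0.166 in the Col-0 group.

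BCAT4, the aminotransferase that opens methionine chain elongation, had small differences as deposited, which depended on the scaling. The Col-0 arrays stood at -0.107, 0.0700 and 0.0366 thousandths, the AtSPP-overexpressed arrays at -0.0673, -0.149 and -0.226, and the knockdown arrays at -0.387, -0.257 and -0.408. The knockdown arrays were below Col-0 by a gap of 0.151 and below the AtSPP-overexpressed arrays by 0.0313, and replicate 1 of the AtSPP-overexpressed lines lay within the Col-0 range. The difference from Col-0 was -0.351 ± 0.0663 thousandths (SE, n = 3 and 3) in the knockdown and -0.147 ± 0.0663 in the AtSPP-overexpressed lines. After quantile normalization they became -2.90 and -2.19, past the -2.55 and -1.46 of UGT74B1 under the same setting. Against its own residual SD of 0.0852 the knockdown difference came to -4.12 SDs, close to the -4.04 SDs of UGT74B1 and short of the -5.92 of GTR1 and the -6.38 of SDI2.

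**Figure D1:**
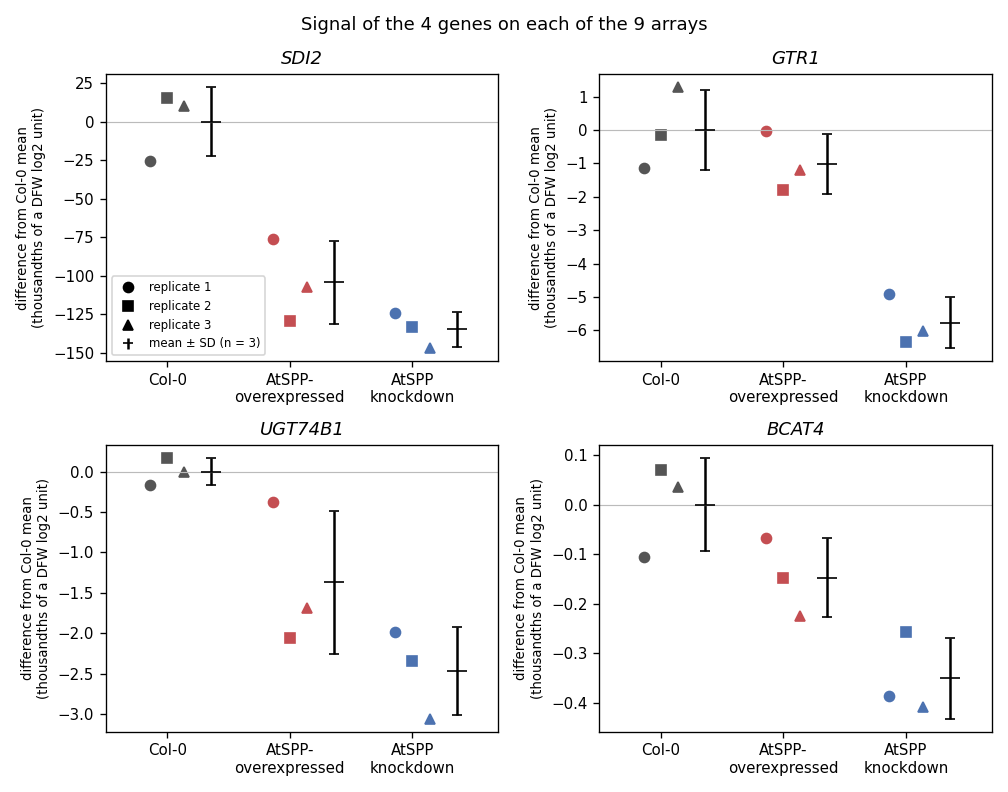
Signal of SDI2, GTR1, UGT74B1 and BCAT4 on each of the 9 arrays, in thousandths of a DFW log2 unit from the Col-0 mean, with a scale of its own for each gene; symbols are replicates, and the bars give the mean ± SD (n = 3). The knockdown arrays lie below all Col-0 arrays in all 4 panels, and the AtSPP-overexpressed arrays do so for SDI2 and UGT74B1.

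The 4 genes lay at different ranks by the size of their differences. In the knockdown comparison GTR1 ranked 164th, UGT74B1 329th and BCAT4 1235th of 22746 by size, and in the AtSPP-overexpressed comparison UGT74B1 ranked 288th, GTR1 383rd and BCAT4 1341st. The order changed between the comparisons for GTR1 and UGT74B1. By rank products, the statistic named in the study's methods, SDI2 took position 2 among lower genes in both comparisons. GTR1 took position 38 in the knockdown and 312 in the AtSPP-overexpressed comparison, UGT74B1 116 and 90, and BCAT4 499 and 617. These positions follow from the choice of the genes and carry no false discovery rate here.

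**Figure D2:**
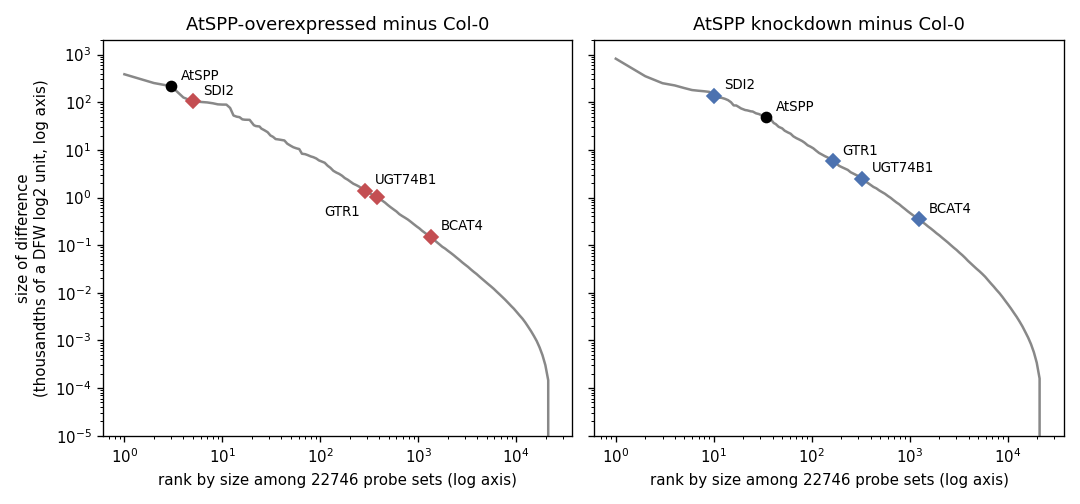
Size of the difference from Col-0 against its rank among 22746 probe sets, both on log axes, with the 4 genes (diamonds) and AtSPP (black circle) on the curve of all probe sets. SDI2 lies at rank 5 and rank 10, beside AtSPP at rank 3 in the AtSPP-overexpressed and rank 34 in the knockdown lines, and BCAT4 lies at ranks 1341 and 1235.

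Counted by the limma threshold (adjusted p under 0.05), none of the 4 genes was called in the AtSPP-overexpressed lines, where 0.246% of all probe sets were called lower, and all 4 were called lower in the knockdown lines, where 6.94% were. Their arrays were all below Col-0 for 2 genes in the AtSPP-overexpressed lines, beside 7.28% of all probe sets, and for 4 in the knockdown lines, beside 18.5%. Between the transgenic kinds 1 of the 4, GTR1, was called higher in the AtSPP-overexpressed lines, where 2.26% of all probe sets were. The choice of the genes used these comparisons, so the counts are given for completeness and nothing is read from them. The 3 Col-0 arrays are shared by the comparisons.

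Set directly against each other, the AtSPP-overexpressed arrays were above the knockdown arrays for GTR1 and BCAT4, beside 15.1% of all probe sets that lay so, and overlapped for SDI2 and UGT74B1. The difference was 4.76 ± 0.758 thousandths for GTR1 (SE, n = 3 and 3), the 129th largest of all probe sets, and 0.203 ± 0.0663 for BCAT4. For SDI2 it was 30.5 ± 16.5 and for UGT74B1 1.09 ± 0.475, and both shrank without replicate 1 of the AtSPP-overexpressed lines, to 16.3 and to 0.590.

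Within a group, the same arrays tended to be high or low for several of the 4 genes. Replicate 1 of the AtSPP-overexpressed lines was the highest of its group for all 4, and over all probe sets it was the highest for 35.7%. Replicate 1 of Col-0 was the lowest of its group for all 4, against 33.6% of all probe sets. In the knockdown lines replicate 3 was the lowest for SDI2, UGT74B1 and BCAT4, against 33.0%, and replicate 1 was the highest for SDI2, GTR1 and UGT74B1, against 37.9%. Knockdown replicate 1 is the only array with the fragment of 600 bp, so that the fragment and the array cannot be told apart.

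**Figure D3:**
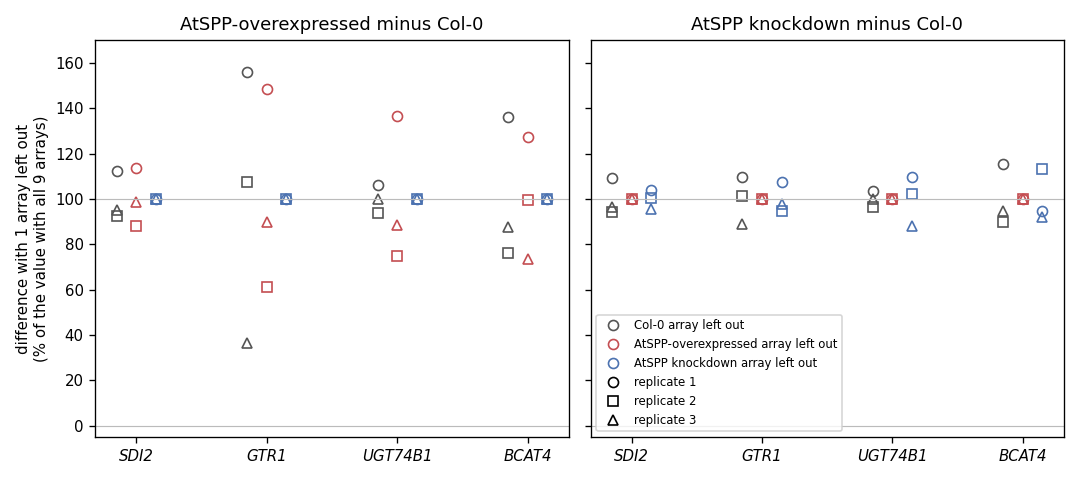
Difference from Col-0 of each gene with 1 array left out, as a percentage of the value with all 9 arrays; colours give the group and symbols the replicate of the array left out, and arrays of the third group leave the value at 100. The knockdown differences stay near their full value, and the GTR1 difference in the AtSPP-overexpressed lines moves most, down to -0.368 thousandths without Col-0 replicate 3.

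Around the 4 genes, lists of the glucosinolate and sulfur pathways held 137 further genes, of which 18 were measured by a probe set paired with 1 gene. The others are called not measured here. They may still have values among the 8730 probe sets that the annotation does not list or the 503 it pairs with several genes. All measured genes of the lists are counted, however they moved, and they were tested, although the lists too were drawn up with earlier results of these data known. In the knockdown lines 4 of the 18 fell, AT2G31790, GSTU20, AOP1 and APS3, and none rose, beside 6.94% of all probe sets called lower and 6.56% called higher. In the AtSPP-overexpressed lines none of the 18 passed in limma, where 0.545% of all probe sets did in either direction; 2 of the 18 had an unadjusted p under 0.05, beside 12.8% of all. In the knockdown lines 9 of the 18 did so, beside 26.8%, and between the transgenic kinds 4, beside 19.5%. The median difference of the 18 was -0.0152 thousandths in the knockdown lines, against -0.000311 over all probe sets, and -0.00451 in the AtSPP-overexpressed lines, against 0.000129. Of the 18 differences, 15 were negative in the knockdown and 12 in the AtSPP-overexpressed lines, beside 56.2% and 47.0% of all probe sets.

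Of the core of glucosinolate synthesis, the branch of UGT74B1, 3 of 19 list genes were measured and 2 fell in the knockdown lines. AT2G31790 stood at -0.148, 0.0487 and 0.0993 thousandths in Col-0, at -0.751, -1.9995 and -1.76 in the AtSPP-overexpressed lines and at -3.20, -2.64 and -3.67 in the knockdown lines. The 3 groups did not overlap, and the pattern had the order seen for the 4 genes. The difference was -3.17 in the knockdown lines (SE 0.382, n = 3 and 3, limma adjusted p = 0.00424), while the -1.50 of the AtSPP-overexpressed lines missed the threshold (adjusted p = 0.170). GSTU20, a glutathione transferase of the core pathway, differed by -0.418 in the knockdown lines (SE 0.0620, limma adjusted p = 0.00824) and by -0.119 in the AtSPP-overexpressed lines (adjusted p = 0.515). Under quantile normalization the GSTU20 call was lost (adjusted p = 0.0817).

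In the list for side chain modification, the step that finishes aliphatic glucosinolates, 3 of 17 genes were measured and 1 fell. A place in the list does not show that a gene acts in this step. AOP1, a 2-oxoglutarate-dependent dioxygenase, differed by -0.190 thousandths in the knockdown lines (SE 0.0364, n = 3 and 3, limma adjusted p = 0.0195), and quantile normalization turned its direction, to 0.157 (adjusted p = 0.0305). The call was also lost in 4 of the 9 fits with 1 array left out, with adjusted p of 0.0645 and 0.0680 without knockdown replicates 2 and 3, and of 0.0539 and 0.0537 without Col-0 replicates 1 and 2. In the AtSPP-overexpressed lines AOP1 was at -0.122 (adjusted p = 0.229), below Col-0 on all 3 arrays, and quantile normalization turned this too, to 0.105 (adjusted p = 0.173). AT2G25450 had the largest difference of this list in the knockdown lines, -0.665, with overlapping arrays (adjusted p = 0.185), and differed by -0.0316 in the AtSPP-overexpressed lines (adjusted p = 0.988).

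Of the transporters, GTR2, the nearest relative of GTR1 and likewise a glucosinolate importer, was the only other one measured. It differed by -0.0419 thousandths in the knockdown lines (limma adjusted p = 0.0772), with all 3 arrays below Col-0, and by -0.0206 in the AtSPP-overexpressed lines (adjusted p = 0.591). PYK10, a beta-glucosidase of ER bodies and the only measured gene of 19 for glucosinolate breakdown, differed by 0.00106 (adjusted p = 0.938) and -0.0004 (adjusted p = 0.991). MYC3, a bHLH factor that acts with MYB factors on glucosinolate genes, had the larger differences of the 2 transcription factors measured of 12, at 0.0130 (adjusted p = 0.835) and 0.0093 (adjusted p = 0.953). No gene of the 9 for methionine chain elongation other than BCAT4 had a probe set paired with 1 gene. The pathway partners of BCAT4 were therefore not read here.

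Of the sulfur genes, 1 fell in the knockdown lines. APS3, an ATP sulfurylase that activates sulfate for assimilation, stood at -0.409, 0.0414 and 0.367 thousandths in Col-0, at 0.374, -0.424 and -0.415 in the AtSPP-overexpressed lines and at -1.73, -1.45 and -1.78 in the knockdown lines. As for GTR1, the knockdown arrays were below all 6 others, which overlapped. The difference was -1.65 in the knockdown lines (SE 0.282, n = 3 and 3, limma adjusted p = 0.0133) and -0.155 in the AtSPP-overexpressed lines (adjusted p = 0.913). The knockdown call was lost without knockdown replicate 3 (adjusted p = 0.0539), as was that of AOP1, so that 2 of the 18 genes were then called. Set directly against each other, the AtSPP-overexpressed lines were higher than the knockdown lines by 1.499 (adjusted p = 0.0394), beside 2.26% of all probe sets called higher, and 8 of the 9 fits with 1 array left out lost this call, with adjusted p up to 0.126 without knockdown replicate 3.

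Of the genes induced by sulfur deficiency, 1 of 9 was measured beside SDI2, and no sulfate transporter of 12. BGLU28, a beta-glucosidase induced when sulfur is short, differed by -0.0262 thousandths in the knockdown lines (limma adjusted p = 0.321) and by 0.0137 in the AtSPP-overexpressed lines (adjusted p = 0.809), so that neither difference passed in the gene nearest to SDI2 by list. Of the genes that supply methionine and tryptophan, 4 of 15 were measured and none passed. The largest differences among these 4 were those of AT2G04400, at -0.307 in the knockdown (adjusted p = 0.182) and -0.273 in the AtSPP-overexpressed lines (adjusted p = 0.455).

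**Figure D4:**
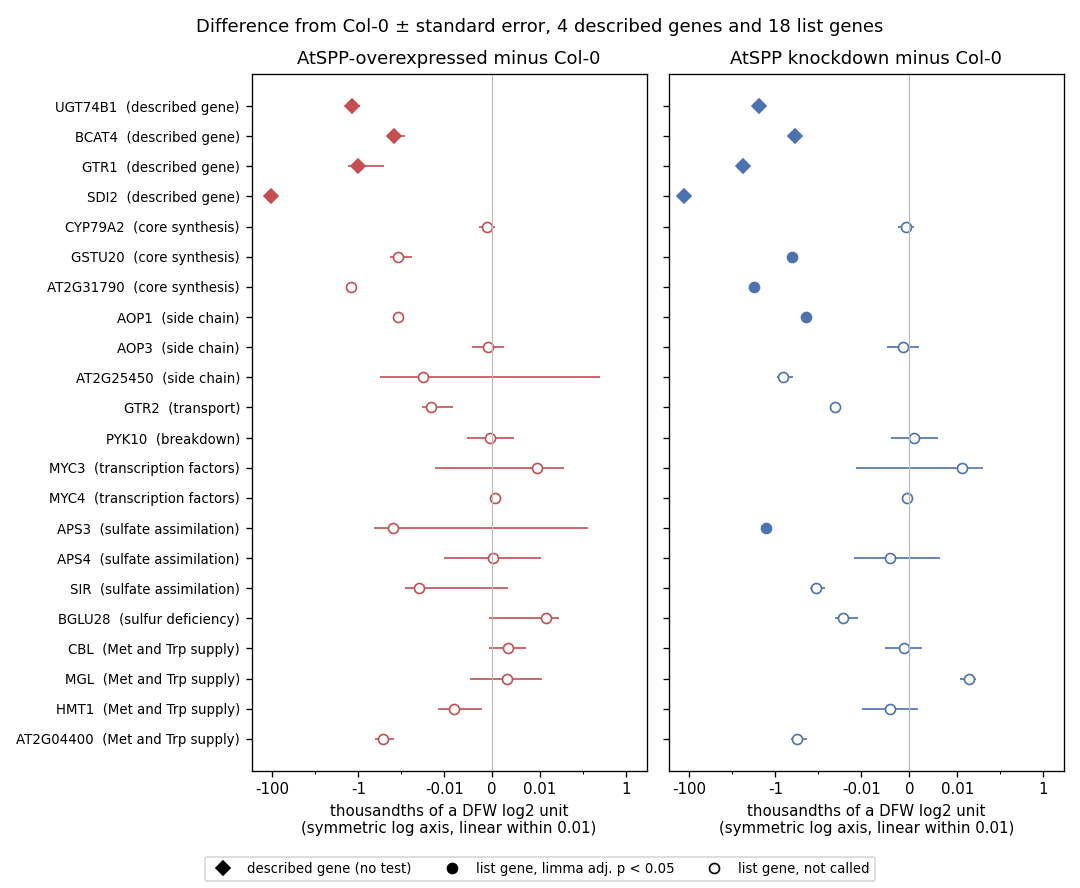
Difference from Col-0 ± SE of the 4 genes (diamonds, no test) and the 18 measured list genes (circles, filled where the limma adjusted p was under 0.05), in thousandths of a DFW log2 unit on a symmetric log axis that is linear within 0.01. In the knockdown lines 4 circles are filled, all left of 0 as deposited (AOP1 moves to the right under quantile normalization), and in the AtSPP-overexpressed lines none is.

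The patterns most like those of the 4 genes were sought among probe sets paired with 1 gene whose SD over the 9 arrays was at least 0.1 times that of the gene. Likeness was the root mean square (RMS) difference of values standardised over the 9 arrays, where 0 would be the same pattern. For GTR1, with 471 candidates and a median RMS difference of 1.59, the nearest were AT5G38980 at 0.242, APS3 at 0.248 and AT2G03550 at 0.254. For UGT74B1, with 854 candidates and a median of 1.51, they were AT5G53420 at 0.169, AT5G21100 at 0.227 and AT5G48730 at 0.241, and AT2G31790 came 4th at 0.245.

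For BCAT4, with 3164 candidates and a median of 1.29, they were PUB26, which encodes a U-box E3 ubiquitin ligase, at 0.227, AT4G04940 at 0.229 and AT5G63180 at 0.248. SDI2 had only 36 candidates that varied enough, with a median of 1.79, and the nearest were AT5G20790 at 0.237, AT1G06000 at 0.371 and ORA47, an ERF transcription factor, at 0.576. AT5G20790 was also close to SDI2 in the size of its differences, at -90.1 thousandths in the AtSPP-overexpressed and -125 in the knockdown lines. The likeness is a description over 9 arrays that share their normalization, and genes with the same order of the 3 groups score well by it.

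**Figure D5:**
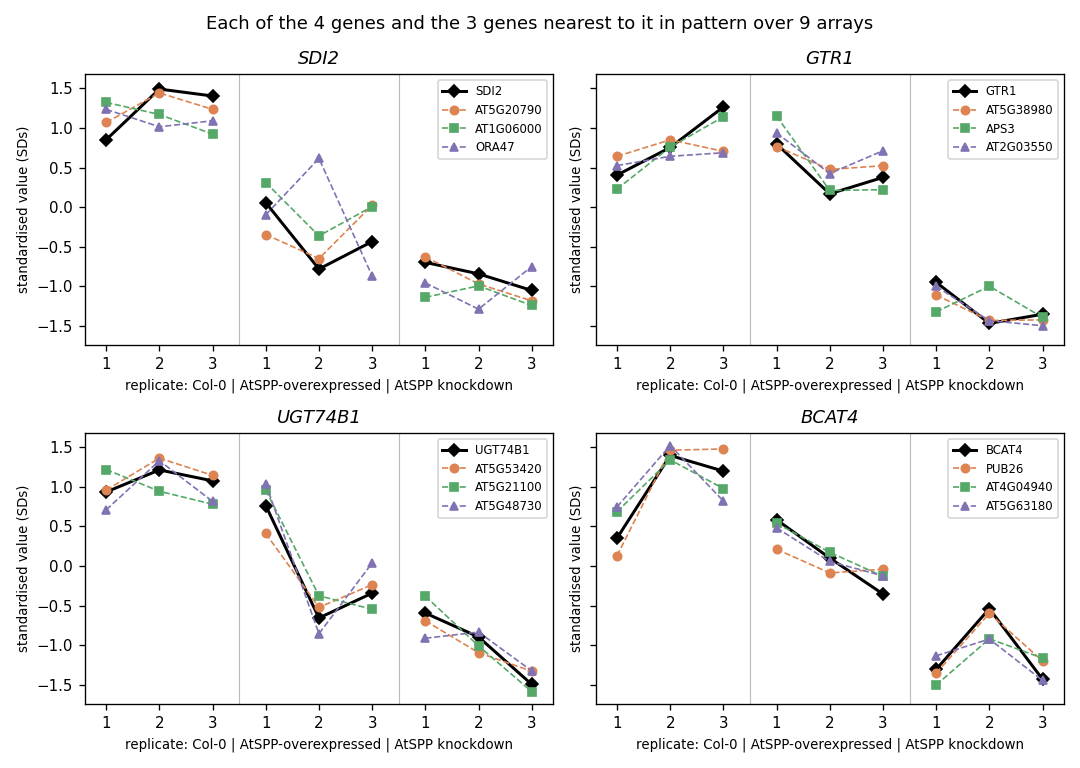
Standardised values (SDs from the mean of the 9 arrays) of each gene (black) and the 3 genes nearest to it, by group and replicate; lines join the arrays of a group only to guide the eye. The SDI2 panel shows the loosest match, with ORA47 at an RMS difference of 0.576, and APS3 follows GTR1 at 0.248.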

How the data were processed

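The authors hybridized 1 Affymetrix ATH1 array per sample, applied DFW normalization to the 9 arrays in R, and deposited 1 log2 value per probe set and array. The log was taken to be to base 2, which no source states; software versions and background correction are likewise unstated in the sources used here. Without scanner intensities the signal over background stays unknown, and precision is limited by the number of arrays. Of 22810 probe sets, 64 controls were left out. Of the other 22746, the platform annotation pairs 13513 with 1 gene and 503 with several, and does not list 8730; symbols come from RefSeq's gene table (assembly TAIR10.1). At most 7 values were identical between any 2 arrays. Replicates are separate pools of plants as far as the labels go, so p-values measure the spread between samples, which may be partly technical.

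Groups were compared with limma 3.58.1 (lmFit, contrasts.fit, eBayes) in R 4.3.3, with all 9 arrays in 1 fit, no covariate, 6 residual degrees of freedom, two-sided p-values and Benjamini-Hochberg adjustment over 22746 probe sets. SEs are moderated. The fit was tested on simulated data with independent noise. By size, the simulated shifts, in residual SDs, all exceeded the AtSPP-overexpressed differences of the 4 genes from Col-0. They also all exceeded the knockdown differences of UGT74B1 (-4.04), BCAT4 (-4.12), AOP1 (-4.06) and APS3 (-4.57). The knockdown differences of GTR1, SDI2, AT2G31790 and GSTU20 were larger than the smallest shift. That test, which shifted the AtSPP-overexpressed group alone, does not cover differences below its smallest shift. Rank products over the 9 array pairs give an order alone. The 4 genes and the gene lists were chosen with earlier results of these data known. Named are the 4 genes, AtSPP and the list genes called in any comparison. Also named are the list gene with the largest difference in each list and transgenic kind, and the 3 nearest patterns of each gene. GTR2 is named as the measured relative of GTR1. LHCB4.2, RCA and the organ markers serve as a check. No sequence was analysed here. Alternatives were quantile normalization, 2 centrings of the arrays, a replicate block, robust eBayes, an intensity trend in eBayes, dropping the dimmer probe sets (those under the median of the means), fits of 6 arrays, any probe set of a gene, and each array left out.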

Additional observations from a re-analysis of the deposited data

Results flagged for a closer look

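The effects of the transgenic kinds, each against Col-0, differed by a direct test for 3 of the named genes. The difference from Col-0 of APS3 was -0.155 thousandths of a DFW log2 unit in the AtSPP-overexpressed and -1.65 in the knockdown lines (limma adjusted p = 0.0394 for the difference between them). That call was kept in only 1 of the 9 fits with 1 array left out. LHCB4.2 differed by -1.70 and 9.82 thousandths (adjusted p = 0.00214), and AtSPP, the gene the constructs target, by 217 and -47.9 (adjusted p = 0.00183).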

How the results depend on the processing

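The 4 genes kept their direction in every comparison under every alternative, but many alternatives could not move a difference. An intensity trend, robust eBayes, the replicate block, dropping the dimmer probe sets and fits of 6 arrays leave it as it is. Leaving out an array of the third group does so too. With these fixed values included, 198 of 204 recomputed differences moved by less than 1 residual SD. The other 6 were those of BCAT4 under quantile normalization and centring on array medians, at -2.19 and -0.306 thousandths for overexpression, -2.90 and -0.903 for knockdown, and 0.715 and 0.597 between the transgenic kinds. Centring on array medians by its construction moved the median difference of all probe sets, by -0.159, -0.552 and 0.393 thousandths.

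Counts over all probe sets followed the scaling. For the AtSPP-overexpressed lines against Col-0, 124 became 2625 (1417 higher, 1208 lower) under quantile normalization, 354 (126 higher, 228 lower) with array medians, 227 without the dimmer probe sets, 0 with the 6 arrays alone, and, with 1 array left out, 5 (Col-0 replicate 2) to 51 (AtSPP-overexpressed replicate 1). For the knockdown lines, 3072 became 6917 (2760 higher, 4157 lower), 22376 with array medians, and 1540 (without knockdown replicate 3) to 2917. Between the transgenic kinds, 986 became 2379 (1963 higher, 416 lower), 22155 with array medians, 428 with 6 arrays, and 343 (without knockdown replicate 3) to 923.

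Of the 18 list genes, quantile normalization called 5 (4 higher) in the AtSPP-overexpressed lines, 7 (4 higher, 3 lower, with 2 of the 4 original calls kept) in the knockdown lines and 2 between the kinds. Array medians called 1, 18 and 18. Between the kinds, 3 were called without the dimmer probe sets and 2 with an intensity trend. With 1 array left out the counts were 0 to 0, 2 to 5 and 0 to 1. AOP1 reversed under quantile normalization in the knockdown lines (adjusted p = 0.0305) and, with no call on either side, in the AtSPP-overexpressed lines (0.173) and between the kinds (0.557). The uncalled APS3 difference of the AtSPP-overexpressed lines turned without Col-0 replicate 3 (adjusted p = 0.991, in a range of 0.559 to 0.997 with 1 array left out). AT2G31790 passed in the knockdown lines under every alternative, with adjusted p up to 0.0206. The causes were not tested.

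No pairing by replicate number was seen, although deviations centred within groups of 3 arrays cannot exclude one. Same-numbered deviations correlated at -0.138 to 0.208 over 9 pairs, 2 of them above 0.1, and different-numbered ones at -0.222 to 0.214. With the replicate block the counts over all probe sets were 2, 2346 and 590, and those of the list genes 0, 3 and 0; APS3 was then no longer called in the knockdown lines (adjusted p = 0.0521) or between the kinds (adjusted p = 0.114).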
